A study of Mus musculus with 14 samples.

Results

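The genes described here are 10 receptors, adaptors and markers of macrophages: the signalling adaptors Fcer1g and Tyrobp, the IgG receptors Fcgr1, Fcgr2b and Fcgr3, the growth factor receptor Csf1r, the surface receptors Adgre1 and Cd14, and the lysosomal or secreted proteins Cd68 and Lyz2. They were chosen by symbol, through the platform's annotation of the probe sets, and are 10 of the 8251 genes that a probe set of 1 gene names on this array. Among the 17 probe sets annotated to them, 16 belong to 1 gene and 1 is shared by Lyz1 and Lyz2. Of the 16, 13 passed the filter on low signals, and all 10 genes kept at least 1 of them.

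Their mRNA was measured in 14 transplanted mouse hearts with MG-U74Av2 oligonucleotide arrays, 1 array per heart. Isografts were hearts moved from C57/BL6 to C57/BL6 mice and taken at day 7 (n = 3) or day 70 (n = 2). Rejecting allografts were Balb/c hearts in C57/BL6 hosts at day 7 (n = 3), with no agent named in the labels. Tolerizing allografts were Balb/c hearts in C57/BL6 hosts given an anti CD80/86 mAb, which blocks the costimulatory ligands of T cells, and were taken at day 7 (n = 3) or day 70 (n = 3). Every host was thus a C57/BL6 mouse with its own immune system, and donor strain and allogenicity cannot be told apart in any comparison of an allograft with an isograft. The labels do not say whether the hearts of a group came from separate operations, so p-values measure only the spread between these hearts. Because each array holds RNA of a whole graft, more cells of a type and more RNA per cell cannot be told apart.

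Fc receptors bind the constant part of antibodies and let phagocytes act on antibody-coated targets. The activating receptors Fcgr1 and Fcgr3 have no signalling motif of their own and work through Fcer1g, the Fc receptor common gamma chain, whose ITAM (immunoreceptor tyrosine-based activation motif) recruits the kinase Syk. Tyrobp, also called DAP12, is the related ITAM adaptor of TREM receptors and of several natural killer cell receptors, while Fcgr2b carries an inhibitory motif that recruits the phosphatase Inpp5d. Csf1r, the receptor for the growth factors Csf1 and Il34, keeps macrophages alive, and its signal and the transcription factor PU.1 set up much of the macrophage programme. Macrophages are resident in the healthy heart and are a large part of the infiltrate of a rejecting one.

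RefSeq promoter sequences of build GRCm38.p6 were at hand for 6 of the 10 genes, namely Fcer1g, Fcgr1, Fcgr2b, Fcgr3, Cd68 and Lyz2, and the 250 bases before each start were searched on both strands. The letters searched were AGGAAGT, a core of the PU.1 site, and were set after the sequences had been seen. They stood in 2 of the 6 promoters (Fcgr1 and Lyz2) and in 7.69% of all 32851 promoters. A match is a description of letters, not of a bound site. The promoters of Fcer1g, Fcgr2b and Cd68, which like Fcgr1 and Lyz2 rose in the rejecting hearts, held no match. The stretches of Fcgr1 and Lyz2 are shown because they hold the letters. Both are given 5′ to 3′ on the gene's own strand, the minus strand, with the match, which reads on the opposite strand, in capitals. In Fcgr1 (chr3:96293999-96294055) the match begins 61 bases before the start, and in Lyz2 (chr10:117282341-117282397) it begins 100 bases before it.
Fcgr1: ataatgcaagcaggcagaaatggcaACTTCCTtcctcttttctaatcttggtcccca
Lyz2: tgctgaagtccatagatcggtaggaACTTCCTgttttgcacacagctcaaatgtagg

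The arrays were on like scales, with a median signal of 38.2 to 45.65 and a mean, without the lowest and highest 2%, of 99.98 on each. The donor label was borne out by H2-Ea, an MHC class II gene that C57/BL6 mice do not transcribe, which lay at 2.5 to 12.3 in the isografts and at 48.1 to 552.0 in the allografts. Heart muscle genes were bright in all groups but fell in the rejecting hearts, where Myh6 read 76.3 to 2212.3 against 3487.4 to 4935.9 in the isografts of day 7. The first 5 accessions, 1 array of each group, and the last 9 differed in the signal of the 18S control (30.3 to 83.4 against 120.4 to 254.6); these are called the first and second accession run. Isograft day 70 replicate 1 stood apart for these genes: it was the lowest of the 14 arrays for 8 of the 10, and the other isograft of that day read 1.62 to 3.97 times higher for those 8. The calls and medians that rest on the isografts of day 70 are therefore given without it too, the lists by their counts. For the dimmer probe set of Fcgr1 only the signals are given.

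In rejecting hearts at day 7, 8 of the 10 genes rose over the isografts of that day: both adaptors, Fcgr1, Fcgr2b, Csf1r, Cd14, Cd68 and Lyz2. None fell, and Fcgr3 and Adgre1 did not pass the threshold of an adjusted p of 0.05 (limma, Benjamini-Hochberg over 10395 probe sets). Of all 7366 genes tested, 9.08% were called higher and 10.6% lower in this comparison. The median difference of the 10 was 1.43 on the log2 scale against 0.02 for all genes. For 9 of the 10 every rejecting array exceeded every isograft array, a pattern that 16.2% of all genes showed.

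Tyrobp, the adaptor with the ITAM shared by TREM and natural killer cell receptors, separated the rejecting hearts from all others. Its signal was 391.0, 374.1 and 370.8 in the isografts of day 7 and 1522.0, 1697.1 and 1599.1 in the rejecting hearts. The tolerizing hearts of day 7 read 1106.1, 569.4 and 996.5, the isografts of day 70 75.6 and 300.0, and the tolerizing hearts of day 70 1054.1, 567.6 and 750.5. Every tolerizing heart also lay above every isograft. The rise in rejecting hearts over isografts was 2.08 on the log2 scale (SE 0.40), or 4.24-fold, with an adjusted p of 0.003177 by limma.

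Fcer1g, the other adaptor, went from at or near the floor of 11, under which signals were set to that value, to well above it. Signals of 8.6, 12.5 and 5.4 in the isografts of day 7 compare with 108.4, 120.8 and 109.2 in the rejecting hearts. In tolerizing hearts Fcer1g read 32.3, 19.3 and 42.7 at day 7. At day 70 the isografts were under the floor with 2.5 and 2.2, and the tolerizing hearts gave 76.8, 7.2 and 11.4, so 1 of those 3 was far above the others. The rise in rejecting hearts was 3.29 on the log2 scale (SE 0.58; adjusted p = 0.001854 by limma), the largest of the 10. It is counted from the floor for 2 of the 3 isografts, and was 1.45 with the floor at the 50th percentile of all values. This probe set carries the suffix of a sequence family, and the second probe set of Fcer1g (2.2 to 16.6 over all arrays) was too dim to be tested, so the change rests on 1 probe set.

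Among the IgG receptors, Fcgr1, the high-affinity receptor, was measured by a pair of probe sets that moved alike. A suffix for probes that can match related transcripts marks the brighter but not the dimmer. The brighter read 146.9, 162.4 and 164.6 in the isografts of day 7, 614.3, 832.8 and 657.6 in the rejecting hearts, and 499.2, 332.3 and 274.7 in the tolerizing hearts of day 7. At day 70 Fcgr1 read 62.5 and 154.3 in isografts and 452.4, 207.7 and 165.8 in tolerizing hearts. The 3 groups of day 7 did not overlap, with the tolerizing hearts between the others. The rise in rejecting hearts over isografts was 2.14 on the log2 scale (SE 0.37; adjusted p = 0.001795 by limma), and 2.50 by the dimmer probe set.

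Fcgr2b, the inhibitory receptor, rose by about as much. Its signals were 96.2, 105.0 and 128.1 in the isografts of day 7, 563.0, 494.5 and 458.9 in the rejecting hearts and 223.1, 145.3 and 241.4 in the tolerizing hearts of that day. Isografts of day 70 gave 30.3 and 102.8, and tolerizing hearts of day 70 gave 243.9, 138.3 and 136.8. The rejecting hearts stood above all other 11 arrays. Over isografts their rise was 2.21 on the log2 scale (SE 0.37), or 4.62-fold, with an adjusted p of 0.001475 by limma. Fcgr2b and Fcgr3 have near-identical antibody-binding parts, and the Fcgr2b probe set carries a suffix for probes that can match related transcripts. Whether Fcgr3 transcripts add to its signal was not tested.

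Fcgr3, the low-affinity activating receptor, has a single and dim probe set, with 4.5 to 39.9 over the 14 arrays. It read 25.6, 36.7 and 4.5 in the isografts of day 7, 32.6, 32.9 and 20.6 in rejecting hearts and 24.0, 21.7 and 18 in tolerizing hearts. At day 70 the isografts gave 39.9 and 13.2 and the tolerizing hearts 14.8, 28.8 and 25.7. All groups overlapped. The difference of rejecting hearts from isografts was 0.37 on the log2 scale (SE 0.48; adjusted p = 0.6786 by limma).

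Csf1r was far above the floor in every heart and moved least of the genes that rose. It read 409.1, 393.8 and 393.0 in the isografts of day 7, 593.5, 705.0 and 630.1 in the rejecting hearts and 514.0, 393.1 and 504.1 in the tolerizing hearts of day 7. In isografts of day 70 it read 168.0 and 286.9, and in tolerizing hearts of day 70 448.4, 392.9 and 432.9. The rejecting hearts did not overlap any other group, whereas tolerizing hearts and isografts of day 7 did overlap. The rise was 0.69 on the log2 scale (SE 0.19), or 1.61-fold (adjusted p = 0.02325 by limma). It did not pass the threshold in 4 of the 6 fits that left out 1 heart (adjusted p up to 0.08679), nor with the 3′ to 5′ signal ratio of beta-actin as a covariate (adjusted p = 0.07495). A second, dim probe set of Csf1r (14.4 to 36.4) showed a difference of 0.08 (adjusted p = 0.9297).

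Adgre1 encodes F4/80, the classical surface marker of mouse macrophages, and parted from the others in the comparison of rejecting with tolerizing hearts. It read 115.7, 85.8 and 144.3 in the isografts of day 7, 146.3, 152.6 and 241.8 in the rejecting hearts and 291.3, 129.8 and 302.8 in the tolerizing hearts of day 7. At day 70 it read 31.3 and 108.3 in isografts and 219.8, 147.4 and 375.0 in tolerizing hearts. Of the 10 genes Adgre1 alone had a higher mean signal in tolerizing hearts of day 7 (241 ± 96.7, SD, n = 3) than in rejecting hearts (180 ± 53.4, n = 3), and these groups overlapped. The difference of rejecting hearts from isografts was 0.64 on the log2 scale (SE 0.47; adjusted p = 0.4148 by limma). In all 5 groups the highest Adgre1 signal was that of the first accession run; within the first and second run the difference was 0.74 and 0.58.

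Cd14, the receptor that presents bacterial lipopolysaccharide to Toll-like receptor 4, read 263.7, 365.0 and 310.5 in the isografts of day 7 and 1028.5, 758.3 and 680.1 in the rejecting hearts. Tolerizing hearts of day 7 gave 382.6, 348.0 and 706.2, so that 1 of the 3 lay within the rejecting range. At day 70 isografts gave 197.4 and 320.2 and tolerizing hearts 382.9, 275.7 and 555.5, with overlap. The rise in rejecting hearts over isografts was 1.38 on the log2 scale (SE 0.31; adjusted p = 0.007705 by limma).

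Cd68, a glycoprotein of macrophage endosomes and lysosomes, read 203.0, 188.9 and 202.5 in the isografts of day 7 and 640.3, 747.7 and 351.0 in the rejecting hearts. The tolerizing hearts gave 373.0, 231.6 and 222.8 at day 7 and 295.8, 197.0 and 251.2 at day 70, and the isografts of day 70 gave 80.7 and 162.8. Rejecting replicate 3 was far below its group and within the tolerizing range. This probe set carries the same suffix as that of Fcgr2b. The second probe set of Cd68 (0.5 to 5.0 over all arrays) was too dim to be tested, so the Cd68 values rest on 1 probe set. The rise in rejecting hearts over isografts was 1.48 on the log2 scale (SE 0.31; adjusted p = 0.005504 by limma), and within the first and second accession run it was 0.79 and 1.82.

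Lyz2, the lysozyme of macrophages and neutrophils, read 926.9, 968.1 and 1234.4 in the isografts of day 7 and 2472.4, 2205.5 and 2015.7 in the rejecting hearts. Tolerizing hearts of day 7 read 1722.1, 1370.0 and 1595.8, between those groups and without overlap. At day 70 isografts read 288.8 and 834.6 and tolerizing hearts 1860.0, 1425.2 and 1801.5. The rise in rejecting hearts over isografts was 1.1 on the log2 scale (SE 0.30; adjusted p = 0.02216 by limma). It too missed the threshold in 4 of the 6 fits without 1 heart (adjusted p up to 0.07998) and with the beta-actin covariate (0.06597). The probe set that Lyz2 shares with Lyz1 rose by 1.41, and the dim second probe set of Lyz2 was higher by 0.78 without passing the threshold (adjusted p = 0.1072).

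**Figure D1:**
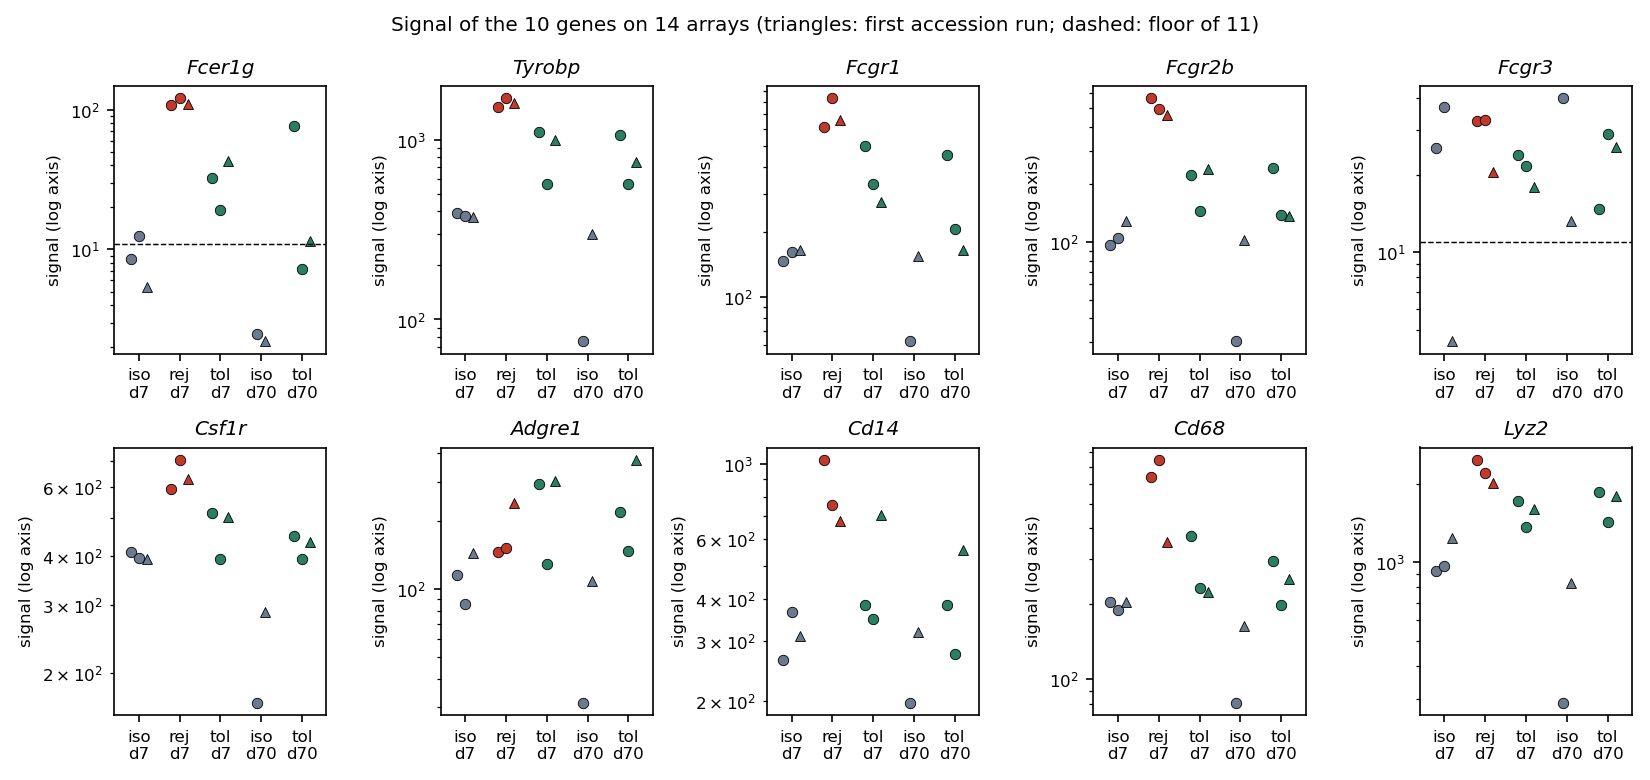
Deposited signal (log axis, arbitrary units) of the 10 genes on all 14 arrays, by group; each point is 1 heart, triangles are arrays of the first accession run and the dashed line is the floor of 11. Fcer1g, Tyrobp, Fcgr1, Fcgr2b, Csf1r and Lyz2 have all 3 rejecting hearts above every other array. Adgre1 has its highest signals in tolerizing hearts, and isograft day 70 replicate 1 is the lowest array for 8 genes.

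Tolerizing hearts at day 7 lay between the other groups for most of these genes, and the test called none of the differences on either side. Against isografts of day 7, all arrays of the tolerizing group were higher for 6 of the 10 genes (10.4% of all genes): Fcer1g, Tyrobp, Fcgr1, Fcgr2b, Cd68 and Lyz2. The differences ran from -0.05 for Fcgr3 to 1.38 for Fcer1g on the log2 scale, with a median of 0.73 against -0.02 for all genes. By limma no gene of the 10 was called and 4 had an unadjusted p under 0.05, namely Fcer1g, Tyrobp, Fcgr1 and Fcgr2b, as had 14.2% of all genes. Among all genes 0.937% were called higher and 0.842% lower in this comparison. Tyrobp and Fcgr1 each showed a difference of 1.18 (adjusted p of 0.2024 and 0.1625).

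The direct comparison of rejecting with tolerizing hearts at day 7 holds donor and host strain constant and asks what the antibody treatment went with. Higher signals in all rejecting hearts were found for 6 of the 10 genes, against 9.23% of all genes: Fcer1g, Tyrobp, Fcgr1, Fcgr2b, Csf1r and Lyz2. The median difference was 0.87 against 0.04 for all genes. By limma none was called, 7 had an unadjusted p under 0.05 (16.4% of all genes), and 0.57% of all genes were called higher and 1.1% lower. Fcgr2b came nearest, higher by 1.34 on the log2 scale (SE 0.37), or 2.54-fold, with an adjusted p of 0.09634; over all alternatives its adjusted p ranged from 0.006987 to 0.3739. Cd68 differed by 1.04 (adjusted p = 0.1202), and by 1.37 (0.0155) without rejecting replicate 3. Adgre1 was the only gene with the opposite sign, at -0.36 (SE 0.47; adjusted p = 0.7881).

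**Figure D2:**
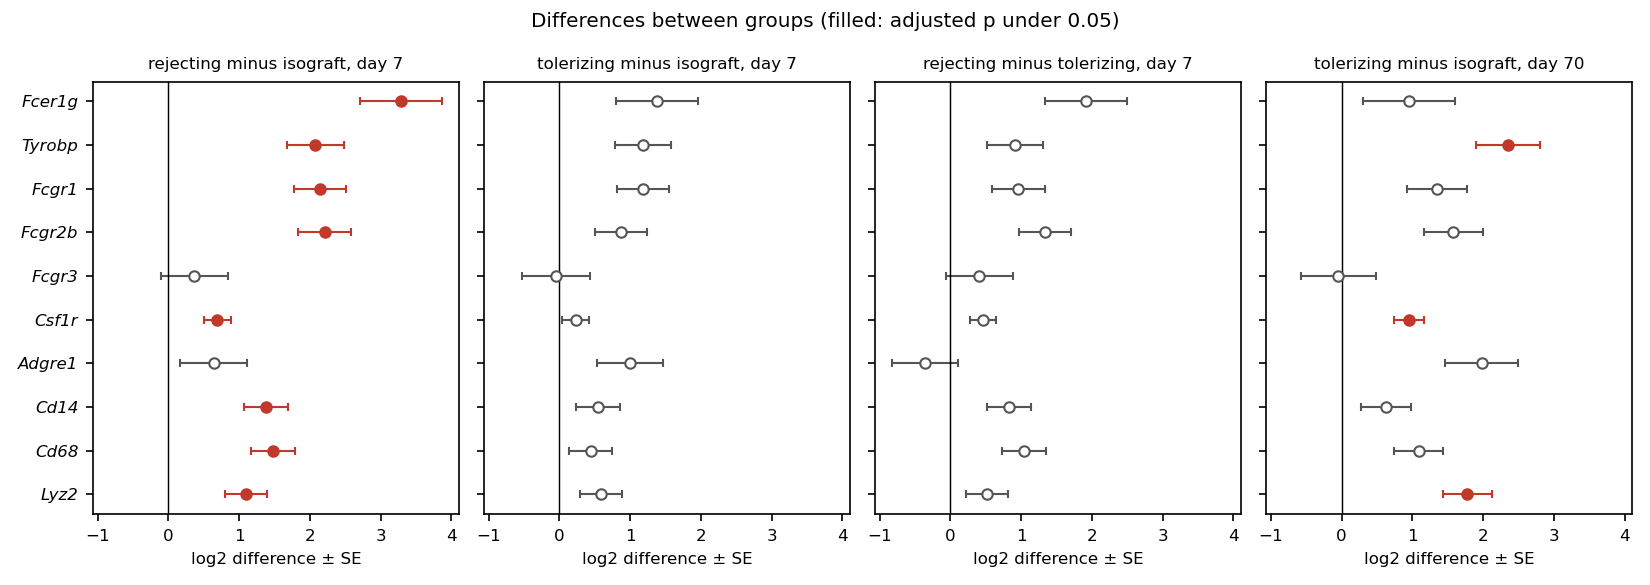
Log2 difference between groups (x axis) with its standard error for each of the 10 genes in 4 comparisons, limma on all 14 arrays; filled points have an adjusted p under 0.05. There are 8 filled points for rejecting hearts against isografts, none in the other comparisons of day 7 and 3 at day 70.

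At day 70, Tyrobp, Lyz2 and Csf1r were called higher in tolerizing hearts than in isografts, and none of the 10 was lower. The rise was 2.35 on the log2 scale for Tyrobp (SE 0.45; adjusted p = 0.01082 by limma), 1.78 for Lyz2 (SE 0.34; 0.01092) and 0.95 for Csf1r (SE 0.21; 0.02762). Fcgr2b (1.58, adjusted p = 0.05885 by limma) and Adgre1 (1.98, 0.05945) came just short of the threshold. The dimmer probe set of Fcgr1 passed it (2.25, 0.03052 by limma) while the brighter did not (1.35, 0.1095). That dimmer probe set read 6.2, under the floor of 11, in isograft replicate 1 and 40.4 in replicate 2. Its signals in tolerizing hearts were 189.3, 86.6 and 61.5. A fit of it without isograft replicate 1 is not given here. The second probe sets of Csf1r and Lyz2, both dim, differed by 0.41 and 0.07 without a call. Among all genes 2.2% were called higher and 0.95% lower. For 8 of the 10 genes every tolerizing heart exceeded both isografts, as for 12.7% of all genes, by deposited signals without the floor. Among the 8 is Fcer1g, whose isografts (2.5 and 2.2) and tolerizing replicate 2 (7.2) were all under the floor of 11.

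These calls turn on the isografts of day 70, of which there are 2. Without replicate 1, the low array, none of the 10 was called (0.787% of all genes were), their median difference was 0.72 in place of 1.22, and Tyrobp differed by 1.35 (adjusted p = 0.1518), Lyz2 by 1.01 (0.1346) and Csf1r by 0.56 (0.3663). Without replicate 2, 6 were called, with Tyrobp at 3.34. Leaving out tolerizing day 70 replicate 1 also ended all 3 calls, with adjusted p of 0.05357, 0.09773 and 0.05153 for Tyrobp, Csf1r and Lyz2. With only these groups in the fit all 3 missed the threshold too (0.2521, 0.2435 and 0.2481). Csf1r also missed it without tolerizing day 70 replicate 3 (0.06582), with no intensity trend (0.05096) and with the beta-actin covariate (0.06388); the beta-actin ratios of day 70 were 1.75 and 1.76 in isografts and 1.24 to 1.69 in tolerizing hearts. The differences kept their direction for these 3 genes in each of these fits.

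Over time, none of the 10 genes was called in tolerizing hearts from day 7 to day 70 (limma; none at an unadjusted p under 0.05 either), and the differences ran from -0.52 for Fcgr1 to 0.11 for Lyz2. In that comparison 0.0136% of all genes were called higher and 0.0% lower. For each of the 10 the signals of these days overlapped, whereas 4.93% of all genes were higher and 8.69% lower on every array of day 70. In isografts 9 of the 10 genes had a lower mean log2 signal at day 70 than at day 7, with a median difference of -0.82 against 0.02 for all genes. None was called (5 had an unadjusted p under 0.05, as had 5.19% of all genes), as was no other gene (0.0% of all). Csf1r was lower by -0.86 (SE 0.21; adjusted p = 0.586) and Tyrobp by -1.33 (SE 0.45; 0.7879). Without replicate 1 of day 70 the median was -0.18, with Csf1r at -0.47 and Tyrobp at -0.34, and again none was called. Both isografts of day 70, replicate 1 included, lay under all isografts of day 7 for 5 of the 10 genes, against 10.2% of all genes. Among the 5 is Fcer1g, for which only isograft day 7 replicate 2 (12.5) was above the floor of 11. Its fitted difference was -0.06. The test of whether the gap between tolerizing hearts and isografts differed between day 70 and day 7 called none of the 10 and no other gene (0.0%); Lyz2 (1.19) and Csf1r (0.72) had an unadjusted p under 0.05, as had 3.38% of all genes, and the median of the 10 was 0.68. Without isograft day 70 replicate 1 it was 0.12, with Lyz2 at 0.42 and Csf1r at 0.34.

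Compared by accession run, the direction of the rise in rejecting hearts was the same. All 10 genes were higher than in isografts in both runs. The median difference was 1.02 in the first and 1.66 in the second. For Fcgr3, whose probe set is dim, it was 0.91, counted from an isograft set to the floor, and 0.1. In the fit of all arrays 51.2% of all genes were higher in rejecting hearts than in isografts of day 7. For tolerizing hearts against isografts the medians were 0.82 and 0.77 at day 7 and 0.71 and 1.94 at day 70, where the single isograft of the second run is replicate 1, the low array. For rejecting against tolerizing hearts they were 0.5 and 0.92.

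How the genes moved relative to each other was read from differences of log2 signal within an array, which show unequal change only. Fcgr2b minus Fcgr1, the inhibitory against the activating high-affinity receptor, averaged -0.47 (SD 0.32) in rejecting hearts, -0.85 (SD 0.57) in tolerizing hearts and -0.53 (SD 0.15) in isografts of day 7, with n = 3 each. The change between rejecting hearts and isografts was 0.07 (exact two-sided permutation test, p = 0.8, adjusted over 6 such tests 0.8; the smallest p that 3 against 3 arrays allow is 0.1). It was -0.29 with the dimmer probe set of Fcgr1, so its direction depends on the probe set. Fcgr2b minus Fcgr3 was larger in rejecting hearts than in isografts by 1.84 and than in tolerizing hearts by 0.93 (exact permutation p = 0.1 and 0.1, adjusted 0.3 and 0.3), with the dim Fcgr3 probe set on the other side of the difference. Between tolerizing hearts and isografts it differed by 0.91 (exact permutation p = 0.3, adjusted 0.45).

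The contrast of the other genes with Adgre1 was chosen after the values had been seen and is described without a test. Fcgr2b minus Adgre1 was 1.94, 1.70 and 0.92 in the rejecting hearts. It was -0.38 to 0.16 in tolerizing hearts of day 7, -0.27 to 0.29 in isografts of day 7, -0.08 to -0.05 in isografts of day 70 and -1.45 to 0.15 in tolerizing hearts of day 70. The rejecting hearts were thus apart from all other arrays. Tyrobp minus Adgre1 showed the same, with 2.73 to 3.48 in rejecting hearts and 1.00 to 2.26 in all other arrays. Of the 9 differences from Adgre1, 4 set all rejecting hearts above every other array, those of Fcer1g, Tyrobp, Fcgr1 and Fcgr2b. The other 5 did not (Fcgr3, Csf1r, Cd68, Cd14 and Lyz2). Csf1r minus Adgre1 was 1.38 to 2.21 in rejecting hearts and 1.45 to 2.20 in isografts of day 7. For Lyz2 minus Adgre1, 1 rejecting heart, at 3.06, lay within the range of the isografts of day 7 (3.00 to 3.50).

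**Figure D3:**
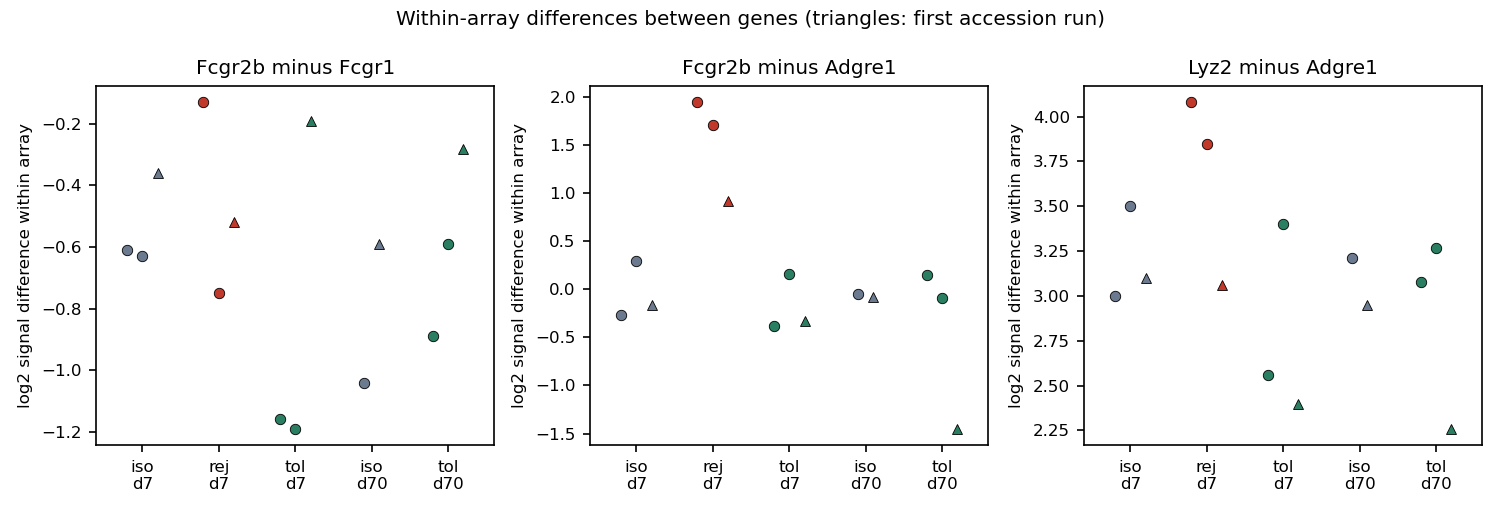
Log2 signal of a gene minus that of another on the same array (y axis), by group, 1 point per heart, with triangles for the first accession run. Fcgr2b minus Fcgr1 overlaps between all groups, Fcgr2b minus Adgre1 is 0.92 to 1.94 in rejecting hearts and at most 0.29 elsewhere, and Lyz2 minus Adgre1 overlaps.

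Over the 14 arrays, which share group, run and array scale, the 8 genes other than Fcgr3 and Adgre1 had pairwise Pearson correlations of log2 signal of 0.671 to 0.969, with a median of 0.8835 over 28 pairs. Adgre1 correlated with those 8 at 0.391 to 0.83, and Fcgr3 with the 9 others at -0.38 to 0.078. The genes outside the 10 that came closest to their mean standardised profile were Cdc42se1 and Lilr4b (both 0.969), Lgals3 and Npc2 (both 0.966), Fermt3 (0.965), Ctsh (0.962), Ctsc (0.961), Fxyd5 and Slc11a1 (both 0.959) and Skap2 (0.958). Lilr4b, a receptor of myeloid cells, was also the nearest gene to Fcgr2b (0.989). It read 719.7 to 1083.1 in rejecting hearts, 240.0 to 345.1 in tolerizing hearts and 146.1 to 220.2 in isografts of day 7. Lgals3, a galectin of activated macrophages, read 879.0 to 1145.2, 194.5 to 352.0 and 92.2 to 173.8 in the same order.

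For the single genes, the nearest profile was that of Il1r2 for Fcer1g (0.946), Cd53 for Tyrobp (0.976), Ms4a6c for Fcgr1 (0.974), Tyrobp for Csf1r (0.964), Dnase1l1 for Cd68 (0.975), Cdkn1a for Cd14 (0.962), and C1qb, a subunit of complement C1q, for Lyz2 (0.976). For Adgre1 it was Gm9706 (0.87) and for Fcgr3 it was Fut4 (0.849), lower than for the others.

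Around these genes in the pathway, 5 of 22 listed receptors that pair with Fcer1g or Tyrobp had a probe set, 4 passed the filter, and 3 of these rose in rejecting hearts over isografts, against 9.08% of all genes. Clec4d, a C-type lectin of myeloid cells, read 848.5, 538.6 and 71.1 in rejecting hearts and 14.3, 13.1 and 7.4 in isografts (log2 difference 4.65; SE 0.67). It also rose over tolerizing hearts (21.4, 17.9 and 34.7), by 3.75 (adjusted p = 0.01635 by limma). The natural killer and T cell receptors Klrd1 (3.22) and Klrk1 (1.77) were the others that rose over isografts.

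Downstream of the ITAM, 10 of 18 kinases and adaptors rose in rejecting hearts and none fell, against 9.08% and 10.6% of all genes. Lcp2, an adaptor that Syk phosphorylates, read 184.8, 230.2 and 284.5 against 33.9, 34.6 and 28.2 in isografts, a rise of 2.84 on the log2 scale (SE 0.45). Skap2 rose by 1.84 and Lat2 by 1.80. At day 70, 3 of the 18 were called higher in tolerizing hearts than in isografts, against 2.2% of all genes. They were Lcp2 (2.94), Skap2 (1.56) and Lat2 (1.87). Without isograft day 70 replicate 1 none of the 18 was called (median 0.62), with Lcp2 at 2.66, Skap2 at 1.4 and Lat2 at 1.48.

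On the inhibitory side, 6 of 13 receptors and phosphatases rose in rejecting hearts and 1 fell, against 9.08% and 10.6% of all genes. Pirb, an inhibitory receptor of myeloid and B cells, read 318.4, 320.9 and 271.6 against 65.6, 62 and 81.2 in isografts (2.13; SE 0.25) and exceeded tolerizing hearts by 1.38 (adjusted p = 0.01693 by limma). The phosphatase Ptpn6 rose by 2.72 and the adaptor Dok2 by 1.35. In tolerizing hearts against isografts at day 70, 2.2% of all genes were called higher. At day 70, Ptpn6 (2.78), Cd72 (2.97) and Inpp5d (1.69) were the 3 of 13 called higher in tolerizing hearts; without isograft day 70 replicate 1 none was called, and they differed by 2.46, 1.49 and 1.27. Of 5 other Fc receptors and IgG transport genes none rose in rejecting hearts, and Pigr, the polymeric immunoglobulin receptor, fell by 0.64 on the log2 scale.

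Among 21 genes of the CSF1 axis and myeloid transcription factors, 8 rose in rejecting hearts and 1 fell, led by Irf8 (2.03; SE 0.30), Cebpb (1.36) and Irf5 (0.97). Irf8, a factor of the monocyte lineage, was also called higher than in isografts in tolerizing hearts at day 7 (1.62; adjusted p = 0.01307 by limma) and at day 70 (1.99; 0.004426). Without isograft day 70 replicate 1 the last was 1.66 and not called (0.09986). In CD14 and Toll-like receptor recognition 1 of 11 genes rose, the integrin Itgam (2.83), and 2 fell, Cd36 and the lipopolysaccharide-binding protein Lbp. Of all genes, 9.08% were called higher and 10.6% lower in rejecting hearts. The median of that list was 0.38.

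Of 36 other macrophage and monocyte genes 21 rose in rejecting hearts and 1 fell, against 9.08% and 10.6% of all genes. Their median difference was 1.32 against 0.02 for all genes. Lgals3 rose by 2.92 and Slc11a1, a metal transporter of phagosomes, by 2.14. At day 70, 13 of the 36 were called higher in tolerizing hearts than in isografts, against 2.2% of all genes. Among them were Ctss (2.57), Slc11a1 (1.94) and C1qb (2.47). Without isograft day 70 replicate 1, 2 of the 36 were called, Ctss (1.86) and Slc11a1 (1.78). Ctss, a lysosomal protease of antigen-presenting cells, was the single gene of the 36 called in tolerizing hearts against isografts at day 7 (1.5). In that comparison 0.937% of all genes were called higher. Rejecting exceeded tolerizing hearts for 5 of the 36, against 0.57% of all genes, with F10 (1.81), Plin2 (1.95) and Slc11a1 (1.28) at the lowest adjusted p. In phagocytosis of apoptotic cells 2 of 17 genes rose and 3 fell in rejecting hearts, against 9.08% and 10.6% of all genes. Gas6, a bridging ligand for dead cells, read 97.1, 70.1 and 53.3 against 443.7, 402.0 and 467.6 in isografts and 221.0, 197.4 and 161.1 in tolerizing hearts.

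**Figure D4:**
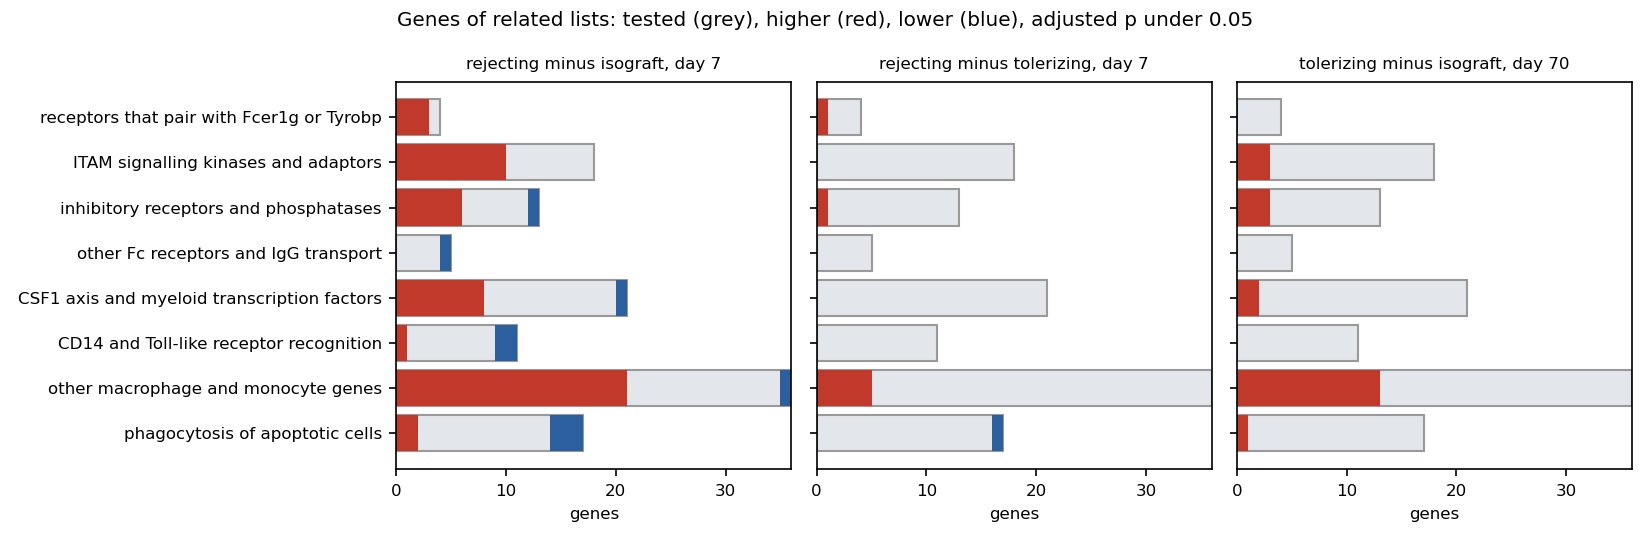
Number of genes (x axis) tested, called higher and called lower (adjusted p under 0.05, limma) in 8 lists related to the 10 genes, in 3 comparisons. Of all genes, 9.08% were called higher in rejecting hearts against isografts and 2.2% in tolerizing hearts against isografts at day 70. In rejecting hearts against isografts 10 of 18 ITAM signalling genes and 21 of 36 other macrophage genes were higher, and 3 and 13 of them in tolerizing hearts against isografts at day 70, or 0 and 2 without isograft day 70 replicate 1.

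Several of the 10 genes are also transcribed by other leukocytes, some of whose markers moved in rejecting hearts against isografts of day 7. Of all genes, 9.08% were called higher and 10.6% lower in that comparison. All 9 pan-leukocyte genes rose in rejecting hearts, their summed signal being 6737.2 to 9745.5 against 2263.5 to 2463.4 in isografts of day 7, 3938.7 to 6877.6 in tolerizing hearts of day 7, 1180.4 to 1990.6 in isografts of day 70 and 3913.1 to 6809.7 in tolerizing hearts of day 70. Isograft day 70 replicate 1, the lowest array for 8 of the 10 genes, also had the lowest pan-leukocyte sum. Neutrophils share Fcer1g, Tyrobp, Cd14 and Lyz2: 2 of 10 tested markers (S100a8 and S100a9) were called higher, with a sum of 944.3 to 3785.1 in rejecting hearts and 521.8 to 812.3 in isografts of day 7. Natural killer cells share both adaptors: 4 of 5 tested markers were higher, with a sum of 219.5 to 850.2 against 68.9 to 90.6. Ncr1, a defining marker, was at or under the floor on every array. Among the 4, Klrd1 and Klrk1 are receptors of T cells too, so these markers do not tell the cell types apart. For T cells 6 of 8 markers were higher, with sums of 620.9 to 2634.2 and 131.2 to 443.8.

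B cells, which carry Fcgr2b, and mast cells, which carry Fcer1g, had no marker called higher in rejecting hearts (0 of 6 and 0 of 5 tested). B cell sums were 209.8 to 545.0 there and 210.0 to 312.0 in isografts, mast cell sums 147.5 to 220.6 and 149.8 to 238.8, and the mast cell protease Mcpt4 was at or under the floor on every array. Platelets also carry Fcer1g: 1 of 3 tested markers was called higher, Gp1bb, with sums of 32.6 to 186.4 in rejecting hearts and 36.1 to 48.4 in isografts. No dendritic cell marker of 7 was called, with sums of 499.4 to 1015.1 and 864.6 to 1016.3. Of 4 tested epithelial markers, Krt18 was called higher. Endothelial markers were lower for 4 of 7 (553.7 to 629.9 against 932.1 to 1708.4), and fibroblast markers for 3 of 7 (2638.0 to 10771.7 against 9332.3 to 14045.7).

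Heart muscle moved the other way from the 10 genes, with 9 of 9 markers lower and a sum of 4675.0 to 20911.5 against 34392.0 to 50728.0. Rejecting replicate 3, low for Cd68 and high for Adgre1, had the highest heart muscle sum (20911.5), the lowest neutrophil sum (944.3) and the highest T cell sum (2634.2) of its group. Beta-actin 3′ to 5′ ratios were 1.26 to 1.61 in rejecting hearts, 1.09 to 1.37 in tolerizing hearts and 1.52 to 1.98 in isografts of day 7. The part of these cells, of the lower share of heart muscle RNA and of RNA quality in the differences of the 10 genes was not tested beyond the fit with the beta-actin covariate, which kept 6 of the 8 calls in rejecting hearts.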

How the data were processed

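Total RNA of 14 transplanted hearts had been hybridised to 1 array each. The authors deposited a linear signal intensity for 12488 probe sets, with software and scaling not given in the sources used here. Symbols came from the platform annotation, updated through a RefSeq gene table (10833 probe sets with 1 gene, 396 with several, 1193 with none; 10817 gene IDs matched). Without further scaling, signals under 11 (the 25th percentile) were set to 11 and log2 was taken. The 10395 probe sets above that floor on at least 3 arrays, of 12422 that are not controls, entered 1 limma fit (limma 3.58.1, R 4.3.3) of all 5 groups with an intensity trend, checked on simulated data. P-values are two-sided and Benjamini-Hochberg adjusted over the probe sets. The brightest probe set stands for a gene. Genes named beyond the 10 are up to 3 called genes per list with the smallest adjusted p, the nearest profiles, and H2-Ea and Myh6 as checks; Ncr1, Mcpt4 and Alb were named outside this rule after their values were seen. The genes and lists were chosen with earlier results of these data known. The number of arrays limits the precision.

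Same-numbered hearts deviated together over all probe sets in the tolerizing groups of day 70 and day 7 (correlations of 0.253 to 0.34 over 3 pairs). No shared animal or batch is named in the labels. For rejecting and tolerizing hearts of day 7 such correlations were 0.005 to 0.252, and in the other comparisons they ran from -0.176 to 0.195.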

Additional observations from a re-analysis of the deposited data

How the results depend on the processing

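Each result was recomputed under other choices of scaling, floor, filter, model, samples and probe set. In rejecting hearts against isografts 6 to 8 of the 10 genes were called under every alternative, leaving out single hearts included. In tolerizing hearts against isografts at day 7 none was called under any. For rejecting against tolerizing hearts, 1 gene was called with the floor at the 50th percentile (Fcer1g). That floor, 41.2, lay above the tolerizing Fcer1g signals of 32.3 and 19.3 and just under 42.7. With array weights (whose estimation did not fully converge) 6 were called. When 1 heart was left out 0 to 1 were called, the 1 being Cd68 without rejecting replicate 3. At day 70, 5 genes were called with the accession run as a block, 0 when only the groups compared entered the fit, and 0 to 6 when 1 heart was left out: 0 without isograft replicate 1 or tolerizing replicate 1, and 6 without isograft replicate 2. The lists of related genes without isograft day 70 replicate 1 were added after seeing the data. In isografts over time 0 to 3 were called when 1 heart was left out, the 3 (Tyrobp, Csf1r and Lyz2, all lower) without isograft day 70 replicate 2. The difference of Fcgr2b minus Fcgr1 between rejecting hearts and isografts, 0.07, turned to -0.29 with the dimmer probe set of Fcgr1 and ranged from -0.1 (without rejecting replicate 1) to 0.21 when 1 heart was left out. With the replicate number as a block (replicate block), 8 genes were called in rejecting hearts against isografts, 0 in the other comparisons of day 7 and 3 in tolerizing hearts against isografts at day 70, and the block changed no call of the 10. Over 1430 single results of a gene under an alternative, 26 lost a call, 19 gained one and no called difference changed sign; 67 differences changed sign that were called neither before nor after. The cause of these changes was not tested.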

Other observations

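In both tolerizing groups replicate 1 had the highest signal of its group for Tyrobp, Fcgr1, Csf1r, Cd68 and Lyz2. The same arrays had the highest pan-leukocyte sums of their groups (6877.6 at day 7 and 6809.7 at day 70) and the highest T cell sums (932.8 and 923.3). They also had the highest signals of Alb, the albumin gene of liver: 274.7 at day 7 against 5.2 and 7.3 in the other tolerizing hearts, and 513.0 at day 70 against 4.4 and 7.8. Alb was singled out after its values were seen, and its relation to the macrophage genes was not tested.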
